A study of Homo sapiens with 10 samples.

Results

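Osteopontin and hyaluronan are matrix components that share cell surface receptors, and 7 genes around them were followed here. They are SPP1, which encodes osteopontin, HAS3, a hyaluronan synthase, HYAL2, a hyaluronidase, CD44, the main hyaluronan receptor, and the integrin subunits ITGAV, ITGB5 and ITGB1. All 7 of the chosen genes were found by symbol among the 18034 genes of the deposited tables. SPP1 and HAS3 had been picked because they stood among the smallest p-values of the inhibitor comparison, so their difference there is a description and carries no test.

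RNA was sequenced in 5 groups of 2 libraries each, all of the human colorectal carcinoma line HCT116. In the inhibitor experiment, cells without a knockdown received DMSO or 10 µM of EPZ-5676, an inhibitor of the histone methyltransferase DOT1L, for 72 h. In the other experiment all 3 groups carry an shRNA against CDK9, the kinase that releases paused RNA polymerase II as part of P-TEFb. One is labelled EV, which the labels do not expand, and the others had wild-type CDK9 (WT) or CDK9 with lysine 56 changed to alanine (K56A) put back. No group of that experiment is free of the knockdown, and nothing in the labels tells if replicates were grown apart or how many clones a line holds, so p-values cover only the spread among these libraries, which may be technical.

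Osteopontin is a secreted, heavily phosphorylated glycoprotein with an RGD motif, through which it binds integrins that pair alpha v (ITGAV) with beta 5 (ITGB5), beta 1 (ITGB1) or other beta chains, and it is also described as a ligand of CD44. Hyaluronan is an unbranched sugar polymer that HAS enzymes extrude through the plasma membrane from UDP-sugars, and that HYAL2, an enzyme anchored at the cell surface, cuts into shorter chains. CD44 is known for its splicing: a block of variable exons between constant ones is included in epithelial and carcinoma cells to different extents and lengthens the extracellular stem of the receptor.

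Levels are FPKM, which count the fragments of a transcript per kilobase of its length, scaled by library, summed over the transcripts of a gene, so that genes can be set beside each other per length. CDK9 stood at 17.9 ± 2.19 FPKM (SD, n = 2) in EV, 3018 ± 59.8 in WT and 2556 ± 78.3 in K56A. In DMSO, normalized separately, CDK9 stood at 40.7 ± 4.47, so WT and K56A lay far above the level of cells without the knockdown. DOT1L stood at 333 ± 13.1, 573 ± 6.88 and 718 ± 21.4 in EV, WT and K56A, against 12.6 ± 0.0298 in DMSO. Both genes were called by limma in WT and in K56A against EV (adjusted p = 0.000166 or lower). Every comparison of these lines thus also sets different DOT1L levels side by side, whose part was not tested. Genes of the mitochondrial genome held 17.3% to 19.3% of FPKM in the inhibitor experiment, 27.1% to 27.9% in EV and WT, and 25.3% and 25.4% in K56A. Of 8 colorectal epithelial markers, 6 had a mean of at least 1 FPKM in each experiment (VIL1 and LGALS4 did not), and their sum ran from 1610 to 2750 over the libraries. Of 7 macrophage and 4 endothelial markers, 0 reached 1 FPKM in either experiment. Among 5 osteoblast markers RUNX2 did, while IBSP, ALPL, SP7 and BGLAP were lower or not analysed here. Among 7 fibroblast markers COL1A1 alone did, and their sum was 27.6 to 30.0 in EV, 33.1 to 34.1 in WT and 34.6 to 36.3 in K56A. Whether these markers bear on the results below was not tested. The deposited tables hold no counts, so the depth is unknown.

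Short reads can assign a form only where they cross the exons or junctions that set it apart. Sequences that part some of the measured forms of osteopontin, CD44 and HAS3 are therefore shown here, though other listed forms can share them. They come from the GENCODE release 29 transcripts (GRCh38), in which 67 of the 81 transcripts listed for the 7 genes were found by identifier and 54 with the same start and end as in the deposited tables. SPP1 (ENSG00000118785, chromosome 4, forward strand) has a pair of internal coding exons that its listed transcripts use differently. The 81-base exon at chr4:87980046-87980126 stands in SPP1-201 and SPP1-203, and the 42-base exon at chr4:87980393-87980434 in SPP1-203 alone. SPP1-207 lacks both, and both lengths are whole numbers of codons (27 and 14).
SPP1 81-base exon: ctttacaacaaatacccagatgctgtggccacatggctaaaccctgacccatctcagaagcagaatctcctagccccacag
SPP1 42-base exon: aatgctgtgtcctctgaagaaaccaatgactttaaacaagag

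For CD44 (ENSG00000026508, chromosome 11, forward strand), 4 junctions leave the same constant exon, whose last 15 bases are chr11:35190051-35190065. They are shown as 30 bases of coding sequence, with the exon that follows in capitals. The standard form continues at chr11:35214852-35214866, and the others at the first bases of variable exon v2 (chr11:35196746-35196760), v3 (chr11:35198121-35198135) or v8 (chr11:35208105-35208119).
CD44 standard: gaatccctgctaccaGAGACCAAGACACAT
CD44 v2: gaatccctgctaccaCTTTGATGAGCACTA
CD44 v3: gaatccctgctaccaGTACGTCTTCAAATA
CD44 v8: gaatccctgctaccaATATGGACTCCAGTC

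For HAS3 (ENSG00000103044, chromosome 16, forward strand), HAS3-205 and HAS3-201 share coding exons up to chr16:69113528-69113542. They part at the last junction, where HAS3-205 continues at chr16:69114343-69114357 and HAS3-201 at chr16:69118355-69118369, again in capitals.
HAS3-205: gggggagatgtccagATCCTCAACAAGTAC
HAS3-201: gggggagatgtccagCCCCCAGGGAAAGGT

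The ligand SPP1 was the lowest of the 7 genes in every library. It held 2.43 and 2.68 FPKM in the DMSO libraries and 6.48 and 5.94 in the EPZ libraries. Both EPZ values lay above both DMSO values, and the EPZ mean was 2.43 times the DMSO mean. In bulk RNA, fewer cells with a transcript and less transcript per cell cannot be told apart. On the log2(FPKM + 0.5) scale, which understates differences of low genes, that is 1.13 ± 0.17 (SE). The gene was low in this experiment: its mean over the DMSO and EPZ libraries together ranked 10218 of 13130 genes tested, counted from the highest.

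Between the CDK9 lines, SPP1 stood at 1.89 and 1.72 FPKM in EV, with 2.14 and 2.04 in WT, then 2.44 and 2.28 in K56A. The groups did not overlap, with EV lowest and K56A highest, but the whole range was a ratio of 1.42 from the lowest to the highest library. The log2 fold change was 0.17 ± 0.14 in WT versus EV (limma adjusted p = 0.652) and 0.31 ± 0.14 in K56A versus EV (adjusted p = 0.332), which share the EV libraries. K56A versus WT gave 0.14 ± 0.14 (adjusted p = 0.728). None of these passed the threshold of 0.05. The summed fibroblast markers, led by COL1A1, followed the same order of lines, and their part was not tested.

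The 3 listed SPP1 transcripts were split unevenly from library to library. SPP1-203, the form with both exons, was listed at 0 and 1.80 FPKM with DMSO, against 3.28 and 3.86 with EPZ. SPP1-201, without the 42-base exon, was at 1.60 and 0.427 with DMSO, against 1.90 and 1.04 with EPZ. SPP1-207, without either, was at 0.834 and 0.454 with DMSO, against 1.302 and 1.04 with EPZ. The EPZ libraries were thus both above the DMSO libraries for SPP1-203 and SPP1-207 but not for SPP1-201. In the knockdown experiment SPP1-203 carried between 35.6% and 86.2% of the gene sum, so the share of each form varied widely between libraries at these levels.

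**Figure D1:**
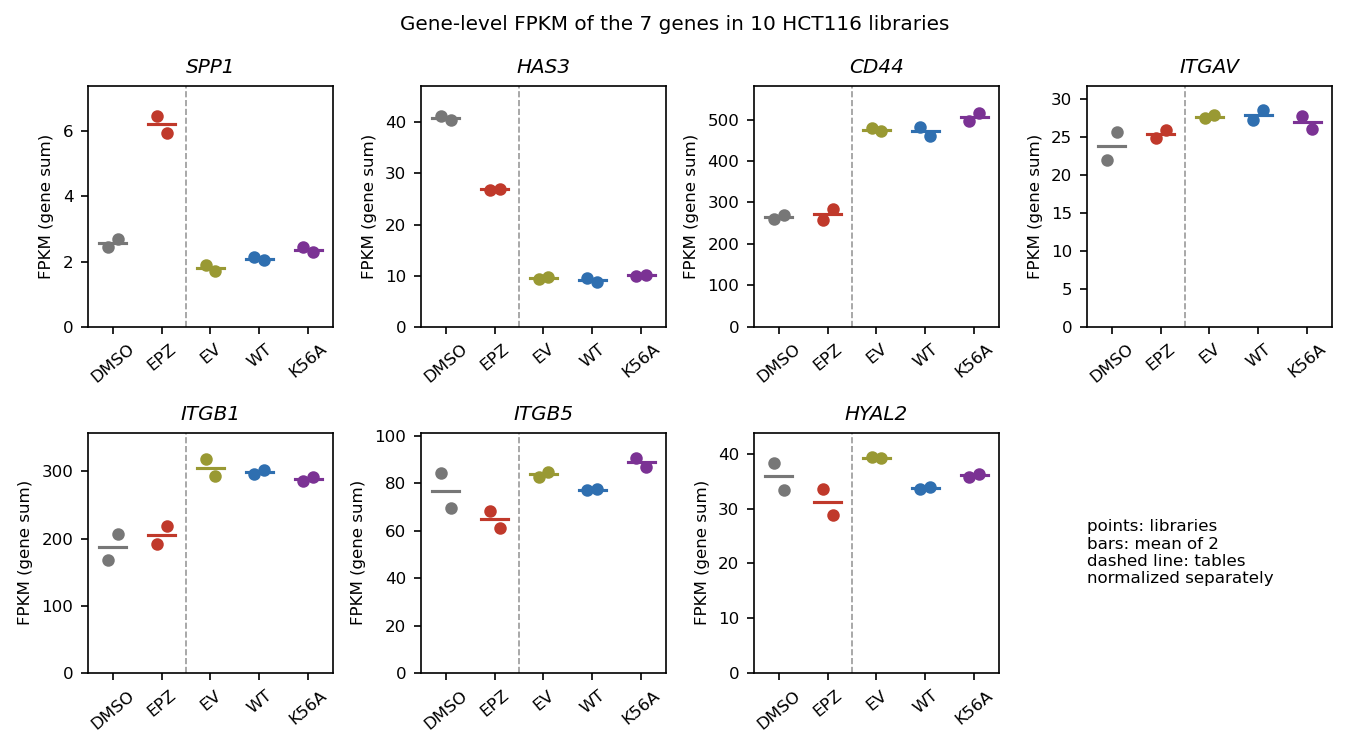
FPKM of the 7 genes in each library (points), with the mean of each group of 2 (bars), on linear axes from 0. The dashed line separates the inhibitor experiment from the knockdown experiment, whose tables were normalized separately. SPP1 is 2.43 times as high with EPZ and HAS3 is at 0.659 of the DMSO mean, while groups within the knockdown experiment lie close together for every gene.

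HAS3 was the abundant hyaluronan synthase gene of these cells. HAS2 stood at 0.0796 FPKM in DMSO and 0.0787 in EV, and HAS1 was not analysed here. HAS3 held 41.2 and 40.4 FPKM with DMSO, against 26.8 and 27.0 with EPZ. Both EPZ libraries lay below both DMSO libraries, at 0.659 of the DMSO mean, a log2 difference of -0.59 ± 0.11 (SE). The SD was 0.577 in DMSO and 0.121 in EPZ (n = 2 each), and since this comparison chose HAS3, nothing is read from that spread.

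HAS3-205 carried 83.6% to 87.8% of HAS3 FPKM in the inhibitor libraries. Its level was 34.5 and 34.0 FPKM with DMSO, against 23.2 and 23.7 with EPZ, so the lower gene sum was seen in its main transcript. HAS3-201, the form with the other last junction, was at 2.41 and 1.61 FPKM with DMSO, against 0.369 and 0.736 with EPZ. It therefore lay lower with EPZ as well.

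In the CDK9 lines HAS3 stood at 9.35 and 9.64 FPKM in EV, with 9.43 and 8.77 in WT, then 9.98 and 10.1 in K56A. EV and WT overlapped, while both K56A libraries were above the rest in these sums. HAS3-201 was listed for EV and K56A but not beside WT, so the sums leave it out. It held 0.230 and 0.553 FPKM in EV, against 0.211 and 0.295 in K56A. With it added, EV and K56A would overlap. The highest library was 1.15 times the lowest. The log2 fold changes of HAS3 were -0.06 ± 0.07 in WT versus EV (limma adjusted p = 0.790), 0.08 ± 0.07 in K56A versus EV (adjusted p = 0.681) and 0.14 ± 0.07 in K56A versus WT (adjusted p = 0.492). No difference passed. The DMSO sum of HAS3 also holds HAS3-201 and HAS3-204 (1.34 and 1.72 FPKM), which are not in the EV sum. Set beside each other without a test, since the tables were normalized separately, the DMSO mean of HAS3 was 4.30 times the EV mean. That is the widest gap of the 7 genes between the experiments. HAS3 thereby ranked 2785 of 13130 genes in the inhibitor experiment and 7289 of 13850 in the knockdown experiment.

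HYAL2 (ENSG00000068001, chromosome 3, reverse strand), which cuts the product of HAS3, held 38.3 and 33.5 FPKM with DMSO, against 33.5 and 28.9 with EPZ. The groups touched, as DMSO replicate 2 at 33.48 lay just under EPZ replicate 1 at 33.53. The log2 difference was -0.20 ± 0.14 (SE). The main transcript, HYAL2-201, did not fall, with 24.5 and 23.3 FPKM in DMSO against 27.3 and 24.0 in EPZ. HYAL2-202 was lower with EPZ, at 9.37 and 7.04 in DMSO against 3.98 and 3.01. HAS3 to HYAL2 ratios within a library were 1.08 and 1.21 with DMSO, against 0.799 and 0.933 with EPZ. In the CDK9 lines they ran from 0.237 to 0.281. Per length, HAS3 thus lay somewhat above HYAL2 in both DMSO libraries and somewhat below it in both EPZ libraries. HYAL2 exceeded HAS3 by more in all 6 knockdown libraries.

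Among the 7 genes HYAL2 had the smallest adjusted p in WT versus EV. It held 39.4 and 39.2 FPKM in EV, with 33.6 and 33.9 in WT, then 35.8 and 36.3 in K56A. EV was highest, WT lowest and K56A between them, with no overlap of any pair of groups. WT versus EV gave -0.22 ± 0.05 on the log2 scale (limma adjusted p = 0.0972), which missed the threshold and ran from 0.0612 to 0.337 over the alternatives. K56A versus EV gave -0.12 ± 0.05 (adjusted p = 0.289), and K56A versus WT 0.10 ± 0.05 (adjusted p = 0.435). The main transcript HYAL2-201 followed the gene sum between EV and WT, at 31.2 and 31.6 FPKM for EV against 27.5 and 24.4 for WT. In K56A HYAL2-201 held 27.1 and 29.7, which overlapped WT.

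CD44 was the most abundant of the 7 genes. It held 260 and 269 FPKM with DMSO, against 259 and 284 with EPZ, so the groups overlapped (log2 difference 0.04 ± 0.10 SE). In the CDK9 lines it held 481 and 472 FPKM in EV, with 483 and 462 in WT, then 496 and 516 in K56A. Its mean ranked 240 of 13130 genes in the inhibitor experiment and 117 of 13850 in the knockdown experiment.

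Both K56A libraries were above all EV and WT libraries for CD44. The log2 fold change was 0.09 ± 0.04 in K56A versus EV (limma adjusted p = 0.309) and 0.10 ± 0.04 in K56A versus WT (adjusted p = 0.297), and WT versus EV was -0.01 ± 0.04 (adjusted p = 0.908). These differences are a few percent of the level and did not pass. In the separately normalized tables the EV mean was 1.80 times the DMSO mean, with no test.

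The CD44 transcripts were sorted by the variable exons they hold between the constant exons shown above. CD44-206, which runs from v3 to v10, was the most abundant, at 71.9 to 80.3 FPKM in the inhibitor libraries and 103 to 114 in the knockdown libraries. CD44-209, from v8 to v10, came next with 43.2 to 48.6 and 52.1 to 60.3. The standard form without variable exons, led by CD44-201, had a sum of 27.2 to 34.0 FPKM in the inhibitor libraries and 47.7 to 56.7 in the knockdown libraries. Most CD44 transcript of these cells that spans the whole region therefore held variable exons.

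Among transcripts that span the region, the standard form made up 16.2% and 17.4% with DMSO, against 17.0% and 19.8% with EPZ. Its share was 19.8% and 17.9% in EV, with 20.8% and 17.7% in WT, then 19.6% and 19.7% in K56A. The groups overlapped within each experiment. The v3 to v10 form made up 47.3% and 45.0% with DMSO, against 44.6% and 41.9% with EPZ, without overlap, and between 38.1% and 40.8% in the CDK9 lines. The longest form, v2 to v10 (CD44-208), stood at 12.8 to 16.8 FPKM in the inhibitor libraries and 47.2 to 53.0 in the knockdown libraries. Its share was 7.59% to 9.68% in the inhibitor libraries and 17.2% to 19.6% in the knockdown libraries, the widest gap between the experiments among these forms. These spanning transcripts held 60.3% to 69.5% of CD44 FPKM in the inhibitor libraries and 54.3% to 58.3% in the knockdown libraries.

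**Figure D2:**
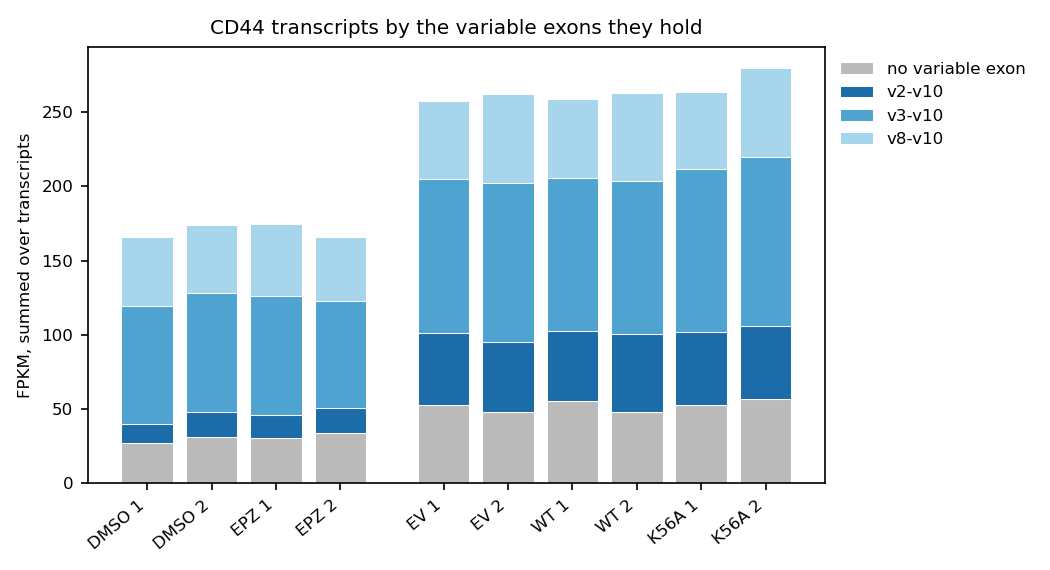
FPKM of the main CD44 forms that span the variable region, stacked by the variable exons they hold, in each of the 10 libraries (axis from 0). Drawn are the forms with no variable exon, v2 to v10, v3 to v10 and v8 to v10, and minor spanning forms are left out. The v3 to v10 form is the largest block in every library (71.9 to 80.3 FPKM in the 4 inhibitor libraries, 103 to 114 in the 6 knockdown libraries), and the v2 to v10 block is larger in the knockdown libraries; the sets of libraries come from tables normalized separately.

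The transcripts of CD44 also differ in their 3′ ends. CD44-201 and CD44-208 share an annotated last exon of 3274 bases, against 340 bases for CD44-206 and 899 for CD44-209. These lengths are those of GENCODE release 29. There CD44-201 and CD44-208 do not have the same start and end as deposited, so their last exon may differ in length. The ratio of the first pair to the second was 0.314 and 0.375 with DMSO, against 0.352 and 0.433 with EPZ. It was 0.634 and 0.557 in EV, with 0.641 and 0.609 in WT, then 0.617 and 0.599 in K56A. Groups overlapped within each experiment, and the knockdown libraries were all above the inhibitor libraries. Splitting of reads between these forms depends on the annotation and on the authors' estimation, and its part in these shares was not tested.

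ITGAV (ENSG00000138448, chromosome 2, forward strand), the alpha v chain, was the least abundant of the 3 integrin subunits. It held 21.9 and 25.6 FPKM with DMSO, against 24.9 and 26.0 with EPZ, with overlap (log2 difference 0.10 ± 0.13 SE). In the CDK9 lines it held 27.6 and 27.9 in EV, with 27.3 and 28.6 in WT, then 27.8 and 26.1 in K56A, which overlapped in every pair. Of the knockdown tables, that of WT alone lists the retained-intron transcript ITGAV-205, at 0.592 and 0 FPKM in EV. In WT it held 1.05 and 0.341. The K56A table alone lists another, ITGAV-207, which held 3.61 FPKM in EV replicate 1 and 0 in EV replicate 2. That is 6.12% of the gene's mean over the EV libraries (11.6% and 0 in the single libraries), above the limit of 5% for a gene to be tested over both tables, so ITGAV was left out of the main model. In the fit with no gene left out, WT versus EV was 0.01 ± 0.06 (limma adjusted p = 0.965), K56A versus EV -0.04 ± 0.06 (adjusted p = 0.803) and K56A versus WT -0.05 ± 0.06 (adjusted p = 0.796).

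ITGB5 (ENSG00000082781, chromosome 3, reverse strand), which pairs with alpha v alone, held 84.3 and 69.5 FPKM with DMSO, against 68.2 and 61.3 with EPZ. The EPZ libraries were below both DMSO libraries by a margin smaller than the gap between the DMSO replicates, and the log2 difference was -0.24 ± 0.13 (SE). In the CDK9 lines it held 82.8 and 84.9 in EV, with 77.0 and 77.4 in WT, then 90.7 and 87.0 in K56A. The groups did not overlap, with WT lowest and K56A highest.

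K56A versus WT gave 0.20 ± 0.04 for ITGB5, the smallest adjusted p of the 7 genes in that comparison (limma adjusted p = 0.143), and it did not pass. WT versus EV was -0.12 ± 0.04 (adjusted p = 0.269) and K56A versus EV 0.08 ± 0.04 (adjusted p = 0.397). The estimates of the lines against EV thus lay on opposite sides of 0, and the test of their difference is K56A versus WT above. The ratio of ITGB5 to ITGAV within a library was 3.01 and 3.04 in EV, with 2.82 and 2.71 in WT, then 3.26 and 3.33 in K56A. The lines did not overlap in these ratios, but the ITGAV sums leave out ITGAV-205 and ITGAV-207. With ITGAV-207 (3.61 FPKM in EV replicate 1) added, EV and WT would overlap, so nothing is read from that order. In the inhibitor experiment it was 3.84 and 2.71 with DMSO, against 2.74 and 2.36 with EPZ, which overlapped.

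In the authors' deposited table of K56A versus EV, 3 of the 75 transcripts listed for the 7 genes had an adjusted p under 0.05, where 3.8% of all 74761 transcripts did. The ITGB5 transcript with most FPKM, ITGB5-201, stood at 27.2 and 27.4 FPKM in EV and rose to 30.8 and 31.1 in the authors' deposited table (log2 fold change 0.14, adjusted p = 0.0225). A shorter one, ITGB5-212, fell from 6.21 and 8.64 to 3.90 and 3.13 there (log2 fold change -1.12, adjusted p = 0.0286). ITGB5-212 also stood at 7.51 and 7.78 FPKM in WT, so both K56A libraries were below all others. The authors' calls for these forms of 1 gene went in opposite directions. Since the share called among the 7 genes lay close to that of all transcripts, nothing is read from this.

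ITGB1 (ENSG00000150093, chromosome 10, reverse strand), the beta 1 chain shared by receptors for laminin, collagen and fibronectin, held 168 and 206 FPKM with DMSO, against 193 and 219 with EPZ, with overlap (log2 difference 0.14 ± 0.13 SE). In the CDK9 lines it held 318 and 293 in EV, with 296 and 302 in WT, then 286 and 291 in K56A. K56A was lowest without overlap, and EV and WT overlapped. The log2 fold changes of ITGB1 were -0.03 ± 0.04 in WT versus EV (limma adjusted p = 0.822), -0.08 ± 0.04 in K56A versus EV (adjusted p = 0.415) and -0.05 ± 0.04 in K56A versus WT (adjusted p = 0.679). ITGB1-201 carried 86.0% to 90.0% of the gene in all libraries.

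A minor ITGB1 transcript was called in both knockdown tables of the authors. ITGB1-219 stood at 0.464 and 0.270 FPKM in EV and at 1.59 and 1.27 in WT, with a log2 fold change of 1.95 and adjusted p = 0.000512 in the authors' deposited table. In the authors' deposited table of K56A it stood at 1.89 and 1.12, with a log2 fold change of 2.001 and adjusted p = 0.00311. Both calls rest on the same EV libraries. ITGB1-219 made up at most 0.661% of ITGB1 FPKM in these libraries. The authors' deposited table of WT versus EV also called ITGB1-215, listed at 0.208 and 0.173 in EV and 0 in both WT libraries (adjusted p = 0.00746). These are 2 of 75 transcripts of the 7 genes, against 3.33% of all 72555. For the inhibitor, the authors' deposited table called 1 of 68 transcripts of the 7 genes, ITGB1-214 (0 in both DMSO libraries, 1.16 and 0.578 in EPZ, adjusted p = 0.00471), against 1.19% of all transcripts listed, and nothing is read from that count since the inhibitor comparison chose members.

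Over the 7 genes, limma made no call between the CDK9 lines. In WT versus EV, 0 of the 6 members tested passed, where 0.536% of 11566 genes did, in K56A versus EV 0 of 6 against 0.787%, and in K56A versus WT 0 of 6 against 0.0605%. At an unadjusted p under 0.05 there were 2 of 6 in each comparison, against 13.5%, 15.1% and 13.0% of all genes tested. They were ITGB5 and HYAL2 in WT versus EV, CD44 and HYAL2 in K56A versus EV, and CD44 and ITGB5 in K56A versus WT. ITGAV, in the fit with no gene left out, passed neither limit. Groups did not overlap for 3 of 7 members in WT versus EV (43.5% of all genes). The count was 6 of 7 in K56A versus EV (45.6%) and in K56A versus WT (45.4%), with ITGAV the exception in the latter comparisons. For HAS3 in K56A versus EV, the gap holds only in sums without HAS3-201. In EPZ versus DMSO, limma called 1 of 13130 genes (0.00762%), which is no member, and the groups did not overlap for 3 of 7 members against 37.4% of all genes. That contrast chose SPP1 and HAS3, so nothing is read from the count.

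**Figure D3:**
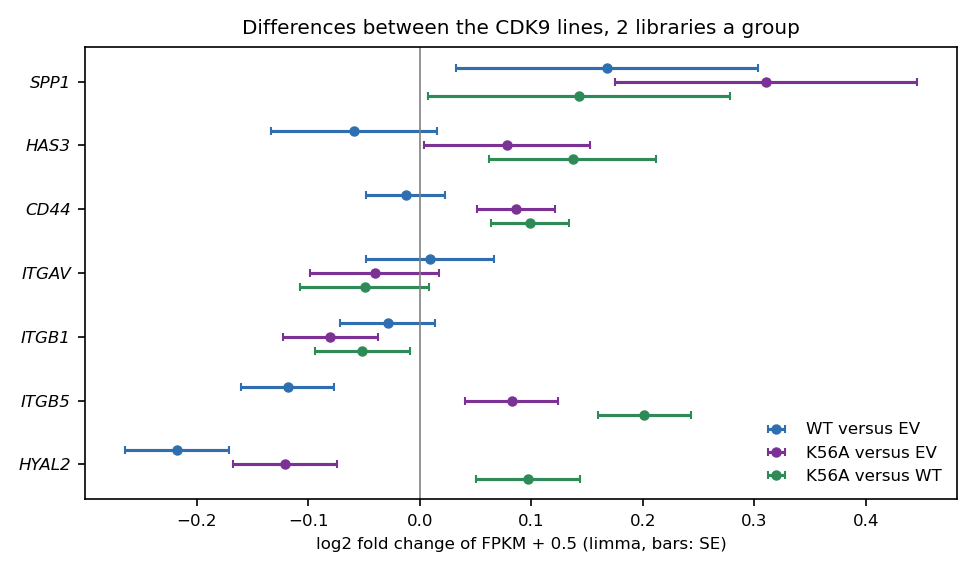
Log2 fold change of each gene between the CDK9 lines (points) with its standard error (bars), from limma on log2(FPKM + 0.5) with 2 libraries a group. HYAL2 in WT versus EV (-0.22) and ITGB5 in K56A versus WT (0.20) lie farthest from 0 relative to their error, SPP1 has the widest error, and no value passed the adjusted threshold; the comparisons share libraries.

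The patterns most like those of SPP1 and HAS3 were sought among 2335 genes by the Pearson correlation of log2 values over the 10 libraries, each centred on the mean of its experiment. The measure describes these libraries only and is led by the DMSO to EPZ difference. For SPP1 the closest were AADAC (r = 0.95), KRTAP2-3 (0.94) and KMT5B (0.92). AADAC, an esterase gene, held 1.05 and 1.53 FPKM with DMSO, against 3.08 and 2.68 with EPZ, and KMT5B, a histone H4 methyltransferase gene, held 9.31 and 9.74 with DMSO, against 13.4 and 15.9 with EPZ. For HAS3 the closest were MFSD13A (r = 0.96), HOXB4 (0.95) and FOSL1 (0.95). FOSL1, which encodes an AP-1 subunit, held 95.8 and 79.7 FPKM with DMSO, against 55.9 and 53.4 with EPZ.

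Around the 7 genes, 8 lists with 118 genes of the same pathways were examined, of which 73 were measured in the main knockdown fit and 78 in the inhibitor fit. Their members were chosen with results of these data known. In WT versus EV 0 of 73 passed, where 0.536% of all genes tested did. In K56A versus EV (0.787% of all genes) and in K56A versus WT (0.0605%) 1 of 73 passed and fell, and it was CCN1 each time. With EPZ 0 of 78 passed limma, but without DMSO replicate 2 the count was 8 of 78 (ADAM17, CCN2, FN1, ITGA6, ITGAE, ITGB4, PARVA and SHARPIN), where 12.0% of all genes tested were called. At an unadjusted p under 0.05 there were 16 of 73 in WT versus EV, where 13.5% of all genes were, 11 of 73 in K56A versus EV (15.1%), 11 of 73 in K56A versus WT (13.0%) and 8 of 78 in EPZ versus DMSO (5.83%). Median log2 fold changes of all genes were 0.01, 0.03, 0.01 and 0.00 in WT versus EV, K56A versus EV, K56A versus WT and EPZ versus DMSO.

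CCN1 is a secreted matrix protein that binds alpha v integrins, as osteopontin does, and is a known target of YAP and TEAD. It held 175 ± 0.318 FPKM (SD, n = 2) in EV, 183 ± 0.965 in WT and 142 ± 6.07 in K56A. CCN1 fell in K56A by 0.30 ± 0.04 on the log2 scale against EV (limma adjusted p = 0.0212) and by 0.36 ± 0.04 against WT (adjusted p = 0.0329). WT versus EV gave 0.07 ± 0.04 (adjusted p = 0.532). Against EV the call held in 9 of 14 alternatives, with adjusted p from 0.00719 to 0.146. It was lost in the K56A table alone (0.0775) and when any 1 library of either group was left out (0.0754 and 0.071 without EV replicates 1 and 2, 0.0788 and 0.146 without K56A replicates 1 and 2). Against WT the call held in 7 of 13, with adjusted p from 0.0107 to 0.372, and was lost with no filter (0.0849), with the replicate block (0.0679) and when any 1 library was left out (0.276 and 0.372 without WT replicates 1 and 2, 0.165 and 0.147 without K56A replicates 1 and 2).

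Of 10 measured ligands of alpha v and beta 1 integrins, CCN1 alone passed in K56A versus EV, and the median of the list was 0.05. CCN2, its relative, had 0.31 in WT versus EV (limma adjusted p = 0.0908). LAMA5, a laminin chain, had 0.17 in K56A versus EV (adjusted p = 0.114), and TGFB1, whose latent form alpha v integrins activate, had 0.34 in K56A versus WT (adjusted p = 0.143). With EPZ, 7 of 11 ligands lay above 0 and the median was 0.21, led by CCN2 at 0.81 and fibronectin, FN1, at 0.44. Of these 0 passed (limma adjusted p = 0.756 for both named genes). With 1 library left out, the log2 difference ran from 0.547 to 1.076 for CCN2 and from 0.406 to 0.481 for FN1. In both genes it was lowest without DMSO replicate 1 and highest without DMSO replicate 2.

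Of 10 other integrin subunits in the CDK9 lines, 0 passed in each comparison, with medians of 0.02 in WT versus EV and -0.03 in K56A versus EV. ITGA3, the laminin-binding partner of beta 1, was the most abundant at 267 FPKM in EV, with 271 in WT and 295 in K56A, and ITGB4 followed at 168, 156 and 167. ITGA5, which pairs with beta 1 in a receptor for fibronectin and osteopontin, stood at 60.5 FPKM in DMSO and 42.0 in EV. Some other subunits of osteopontin receptors were low: ITGB3 stood at 0.131 FPKM in DMSO and 0.206 in EV, and ITGA9 at 0.152 and 0.477. ITGB8, another partner of alpha v, was at 0.710 in DMSO and 1.315 in EV. ITGB5 and ITGB1 were thus the abundant beta chains among those that pair with alpha v in these cells.

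Of 18 measured genes of the adhesion machinery, 0 passed in any comparison of the lines, and 14 lay above 0 in K56A versus EV with a median of 0.08, against 0.03 for all genes. Vinculin, VCL, had -0.15 in WT versus EV (limma adjusted p = 0.193) and -0.16 in K56A versus EV (adjusted p = 0.166), and ACTN4, an actin crosslinker, was the most abundant at 279, 242 and 260 FPKM in EV, WT and K56A. Of 15 measured partners, sheddases and splicing factors of CD44, 0 passed, with medians of -0.035 in WT versus EV and -0.041 in K56A versus EV. EZR, which ties CD44 to actin, came closest with -0.18 in WT versus EV (adjusted p = 0.0551). It fell past the threshold there under 3 alternatives, those with genes of at least 5 FPKM, with median-ratio rescaling and without mitochondrially encoded genes. ESRP1 and ESRP2, which promote inclusion of variable exons, stood at 34.7, 33.8 and 32.9 and at 24.8, 25.4 and 26.0 FPKM in EV, WT and K56A.

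Of 9 measured genes that make hyaluronan precursors, 0 passed. GNPNAT1, which acetylates glucosamine phosphate, had 0.39 in WT versus EV (limma adjusted p = 0.114), and HK2, a hexokinase, -0.32 in K56A versus EV (adjusted p = 0.132). UGDH, which makes UDP-glucuronate, was level at 21.2, 21.4 and 21.0 FPKM in EV, WT and K56A, and at 31.9 and 31.5 in DMSO and EPZ. Of 6 measured genes of hyaluronan breakdown, 0 passed, and the median was -0.02 in WT versus EV and 0.06 in K56A versus EV. CEMIP, which binds and helps to depolymerize hyaluronan, stood at 13.4, 13.6 and 15.3 FPKM in EV, WT and K56A, against 2.32 in DMSO and 1.67 in EPZ, tables that were normalized separately.

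Of the other receptors and binders of hyaluronan, 2 of 12 were measured in the lines and 0 passed. VCAN, a matrix proteoglycan that binds hyaluronan, stood at 65.4, 66.9 and 62.7 FPKM in EV, WT and K56A. Of the osteopontin family and its processing enzymes, 3 of 12 were measured in the lines and 0 passed. FAM20C, the kinase that phosphorylates osteopontin, stood at 10.6, 9.91 and 12.1 FPKM in EV, WT and K56A, and MMP7, which cleaves osteopontin, at 3.05, 2.40 and 2.62. IBSP, a relative of osteopontin, was not analysed here.

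**Figure D4:**
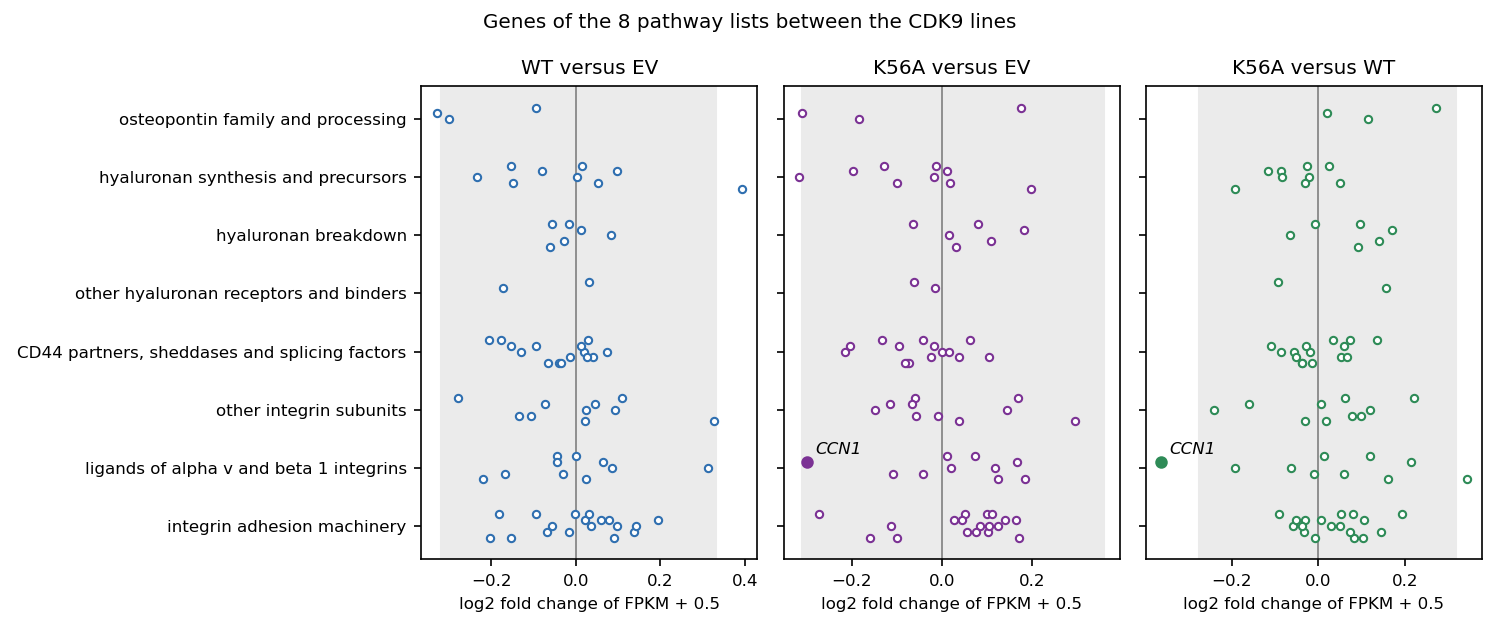
Log2 fold change of each measured gene of the 8 pathway lists between the CDK9 lines (limma, log2(FPKM + 0.5)). Filled points have an adjusted p under 0.05, open points do not, and the grey band holds the central 95% of all genes tested. CCN1 is the only filled point, at -0.30 in K56A versus EV and -0.36 in K56A versus WT.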

How the data were processed

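Per the submitters' processing notes, RSEM 1.3.3, STAR 2.7.1a, DESeq2 1.32.0 and Trim Galore 0.6.6 were run with build GRCh38. Their roles, like the annotation release, are not stated. The authors deposited 3 tables of FPKM per transcript for 4 libraries each, with log2 fold changes and adjusted p-values from edgeR or DESeq2 per the file headers. Those authors' log2 values and p-values serve only as authors' calls. Another 4 summary columns were not used.

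FPKM were summed per gene. EV stands in both knockdown tables with a constant factor (1.0007 and 1.0006), so K56A was rescaled by its mean. Only the 69086 transcripts in both tables were summed there, and genes with over 5% of a group's FPKM in transcripts of 1 table were left out (2284 of 13850). Genes of at least 1 FPKM in 2 libraries were tested with limma 3.58.1 (R 4.3.3) on log2(FPKM + 0.5) with an intensity trend, two-sided, Benjamini-Hochberg adjusted over all genes (13130 or 11566) at 0.05. The fit was tested on simulated data. Tables and plots used pandas 2.3.3, numpy 2.4.6, matplotlib 3.10.9 and Python 3.11.15.

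Members, pathway lists and marker lists were chosen with earlier results of these data known. All 7 members are named. Of each list, up to 4 genes with the smallest adjusted p and, without a call, the 2 with the highest mean are named, and for SPP1 and HAS3 the 3 genes with the highest correlation (mean of at least 2 FPKM in each experiment and centred SD of at least 0.15). Examples beyond that rule (HAS2, FN1, ITGA5, ITGB3, ITGB8, ITGA9, ESRP1, ESRP2, UGDH, CEMIP, IBSP and the 8 list genes called without DMSO replicate 2) were chosen after their values were seen. Alternatives were other pseudocounts, filters and scalings, a replicate block, each library left out and other ways to join the tables.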

Additional observations from a re-analysis of the deposited data

How the results depend on the processing

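No member was called between the CDK9 lines under any of the alternatives run (0 each), with limma adjusted p from 0.0612 to 0.999 over 257 values. Of these, 252 kept their direction and 5 changed sign, each with 1 library left out. They were CD44 in WT versus EV (-0.045 to 0.019, with 0.001 without EV replicate 1 and 0.019 without WT replicate 2) and ITGB1 in WT versus EV (-0.086 to 0.029, the latter without EV replicate 1). ITGAV, for which these fits were added after seeing the data, ran from -0.023 (without WT replicate 2) to 0.041 in WT versus EV, and from -0.086 to 0.005 (without K56A replicate 2) in K56A versus EV. The log2 difference with EPZ ran from 1.02 to 1.25 for SPP1 and from -0.61 to -0.58 for HAS3. Both genes were picked from that comparison, so nothing is read from how narrow these ranges are.

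Numbers of genes called over the whole table moved more. WT versus EV gave 62, and 40 with no filter, 149 with at least 5 FPKM, 125 without mitochondrially encoded genes, 10 in its own table, and 2 to 7 with 1 library left out. K56A versus EV gave 91, and 55, 186, 122, 22, and 6 to 38. K56A versus WT gave 7, and 1 with no filter, 24 with at least 5 FPKM, 16 without mitochondrially encoded genes, and 1 to 2. EPZ versus DMSO gave 1, and 0 with a pseudocount of 0.1, with no filter and with at least 5 FPKM, and 34 to 1560 with 1 library left out (1560 without DMSO replicate 2). The lone library is assumed to vary like the other groups. Except for the fewer samples or genes of these fits, the cause was not tested.

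With the replicate block, 46, 53, 3 and 2 genes were called in WT versus EV, K56A versus EV, K56A versus WT and EPZ versus DMSO. The labels give shared numbers only; deviations of same-numbered libraries had r = 0.24 for DMSO and EPZ, 0.03 for EV and WT, -0.01 for EV and K56A and -0.03 for WT and K56A.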
